A study of Arabidopsis thaliana with 4 samples.

Results

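UDP-glycosyltransferases (UGTs) are enzymes of small-molecule conjugation, and 50 genes of this family were named alone by a probe set here, among 13356 such genes. A gene was taken as a member when its annotated symbol or a synonym, with a leading AT ignored, begins with UGT and a number of 71 to 92, and when a probe set names that gene alone. The anthocyanin genes UF3GT and AT4G14090 were left out of the family. Each of the 50 members had 1 probe set, and 3 of them were recognised by a synonym, namely UGT72B1 (listed as GT72B1), UGT80A2 (listed as SGT) and UGT79B6 (listed as AT5G54010). The RefSeq table of assembly TAIR10.1 holds 63 genes that meet the same naming rule, and the other 13 were not named alone by a probe set in the annotation used here.

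Plant UGTs move a sugar, most often glucose, from a UDP-sugar onto hormones, flavonoids, phenolic acids, sterols and foreign compounds. The product is usually more soluble, less reactive and easier to store in the vacuole, and for hormones such as salicylic acid, auxin, abscisic acid and cytokinins it is usually an inactive form. Families are numbered by sequence similarity, so members with the same number are close relatives, and many lie side by side in the genome.

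Transcript levels came from 4 Affymetrix ATH1 arrays, which report each transcript through a set of short probes, made from whole Arabidopsis thaliana seedlings. The mutant group was rsa3-1 and the other group was wild type (WT), with 2 arrays each that the design text calls biological replicates. Seedlings of both genotypes were 6 days old when salt treatment began, had 24 h on 120 mM NaCl, and share the background Columbia gl1 with a luciferase transgene under the stress-responsive RD29A promoter. RSA3 encodes a galactosyltransferase of xyloglucan, a cell wall polysaccharide, and 0 probe sets name it alone, so the mutated gene was not analysed here. All 4 arrays had salt, so the comparison asks which UGT transcripts differ between rsa3-1 and WT under salt, and it does not measure a response to salt.

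Values are log2 values, and array medians lay between 6.46 and 6.51. WT replicate 1 stood apart from the other 3 arrays in its control probe sets. Of 45 bacterial and phage control probe sets on the array, 44 were highest on WT replicate 1, where they exceeded the mean of the other 3 by 0.94 in the median (log2). Over all tested probe sets the median excess of WT replicate 1 was only 0.018, and over the UGT members it was 0.15. Without WT replicate 1 the log2 difference of 37 of the 50 members moved by more than 1.5 times or changed sign, and 10 of them changed sign. Leaving out WT replicate 2 moves each difference as far in the other direction, so these counts do not single out WT replicate 1. Among tissue markers, the photosynthetic genes RCA, PSAE-1, PSBW and HPR lay between 11.94 and 13.53, the root gene PYK10 between 13.38 and 13.54, and the root hair genes EXPA7 and EXPA18 between 6.49 and 7.30. The photosynthetic genes and the root gene PYK10 were thus bright on every array, while the root hair genes lay closer to the array medians. Between genotypes, 0 of 8 markers, these and the guard cell gene FMA, passed the test in limma. The root hair genes EXPA18 and EXPA7 differed by -0.37 (limma unadjusted p = 0.014, adjusted p = 0.33) and -0.28 on the log2 scale, rsa3-1 minus WT, and PYK10 by -0.11. The photosynthetic genes differed by 0.28 for HPR (limma unadjusted p = 0.031, adjusted p = 0.44), 0.11 for PSBW, 0.054 for RCA and 0.039 for PSAE-1. FMA differed by -0.091. Whole seedlings mix many cell types, and fewer cells of a type cannot be told apart from less RNA per cell.

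None of the UGT genes passed the test for a difference between rsa3-1 and WT. The count was 0 of 50 in limma at a Benjamini-Hochberg adjusted p under 0.05, taken over all 22746 tested probe sets, of which 256 (1.13%) passed. The smallest adjusted p in the family was 0.27. At an unadjusted p under 0.05 in limma, 3 members (6%) were lower in rsa3-1 and 0 were higher, against 5.05% lower and 4.63% higher over all probe sets. The share lower is near that background. Without WT replicate 1 the unadjusted counts were 1 lower and 1 higher, against 3.67% and 3.96% of all probe sets, and without WT replicate 2 they were 8 lower and 0 higher, against 6.98% and 5.35%. The 3 members, UGT76E12, UGT72B3 and UGT71C3, differed by -0.81, -0.34 and -0.27 with all arrays. Without WT replicate 1 they differed by -0.57, -0.28 and -0.27. A fit with 1 array in a genotype is less precise, so its counts are not directly comparable with those from all arrays.

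The intervals around the differences were narrow for most members. In 49 of 50 members the 95% interval of the log2 difference, from limma and not widened for the number of genes, lay within a 2-fold change in either direction. In 43 of 50 it lay within 1.5-fold. These counts include 11 members under 5 on every array, where RMA compresses differences, so their intervals may not bound a change in the transcript. All intervals rest on 2 arrays per genotype and on variance estimates that borrow from all probe sets. Apart from UGT76E12, the fitted differences ran from -0.34 to 0.24 and the interval bounds from -0.69 to 0.69. The median interval reached 0.26 to either side of its difference. The plot of differences by gene shows these intervals against the 2-fold lines.

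**Figure D1:**
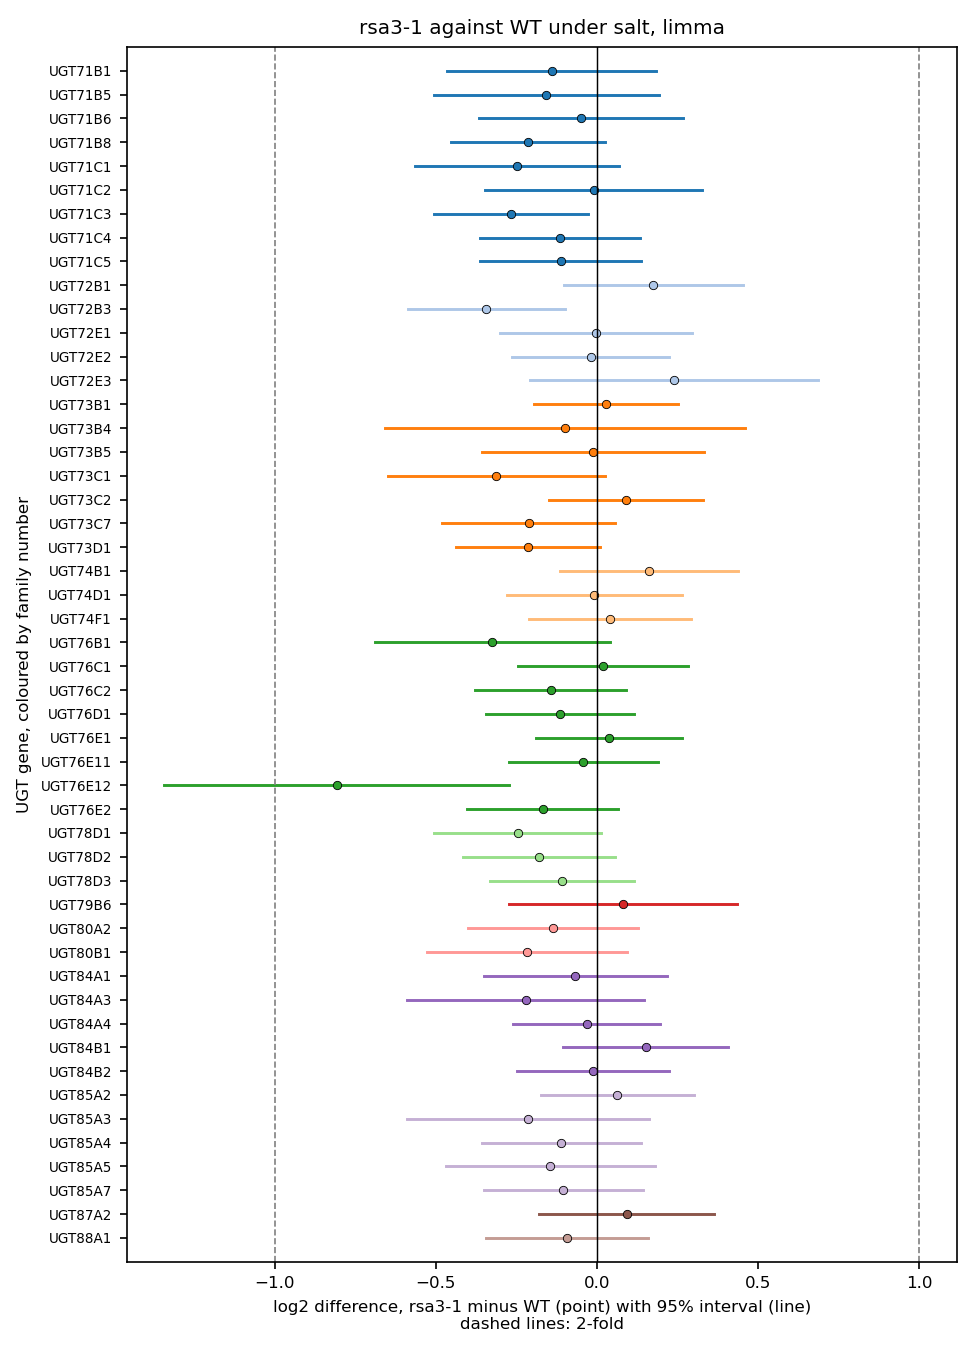
Log2 difference of each of the 50 UGT genes, rsa3-1 minus WT under salt (x axis), with its 95% interval from limma as a line, ordered and coloured by family number from 71 at the top to 88 at the bottom (y axis). Dashed lines mark a 2-fold change, and the interval of UGT76E12 is the one that crosses them.

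UGT76E12 (AT3G46660) had the largest difference in the family. Its log2 values were 5.30 and 4.66 on the rsa3-1 arrays, against 6.03 and 5.55 on the WT arrays. Both rsa3-1 arrays were below both WT arrays, but the arrays of each genotype were themselves far apart. The means were 4.98 ± 0.45 in rsa3-1 and 5.79 ± 0.34 in WT (SD, n = 2 each), so rsa3-1 was 1.75-fold lower, a fitted difference of -0.81 ± 0.23 (SE; limma adjusted p = 0.27, unadjusted p = 0.0088). The 95% interval ran from -1.34 to -0.27. The value on rsa3-1 replicate 2, 4.66, was under 5, in the range where RMA compresses differences. What this does to the fitted size was not tested. The difference was -1.12 without rsa3-1 replicate 1, where it was the 1 member to pass (limma adjusted p = 0.048, against 0.976% of all probe sets called in that fit), and -0.49 without rsa3-1 replicate 2 (adjusted p = 0.60). It was -0.57 without WT replicate 1 (limma unadjusted p = 0.062, adjusted p = 0.70) and -1.05 without WT replicate 2 (adjusted p = 0.20). Its size therefore differed with the array left out, in either genotype.

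UGT76E11 (AT3G46670) lies next to UGT76E12 in the gene order or with 1 gene between them. Its log2 values were 7.40 and 7.50 in rsa3-1, against 7.52 and 7.46 in WT, a difference of -0.042 (95% interval -0.27 to 0.19). The rsa3-1 and WT values overlapped. The gap between the differences of these neighbours was 0.76 on the log2 scale, and it was not tested. UGT76E2, of the same subfamily, had 5.24 and 5.35 in rsa3-1, against 5.44 and 5.49 in WT. UGT76E1 stayed between 3.27 and 3.35 on all arrays, close to the lowest value of the tested probe sets, 2.57.

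UGT72B3 and UGT71C3 were the other members with an unadjusted p under 0.05. UGT72B3 (AT1G01420), a close relative of UGT72B1, had 6.27 and 6.37 in rsa3-1, against 6.73 and 6.60 in WT. The genotypes did not overlap, and the difference was -0.34 ± 0.10 (SE; limma unadjusted p = 0.012, adjusted p = 0.31). UGT71C3 (AT1G07260), which glucosylates methyl salicylate, had 5.53 and 5.67 in rsa3-1, against 5.87 and 5.86 in WT. Its difference was -0.27 ± 0.10 (SE; limma unadjusted p = 0.033, adjusted p = 0.44). Without WT replicate 1 the differences of UGT72B3 and UGT71C3 were -0.28 and -0.27, with limma unadjusted p of 0.060 and 0.080 and adjusted p of 0.69 and 0.73.

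**Figure D2:**
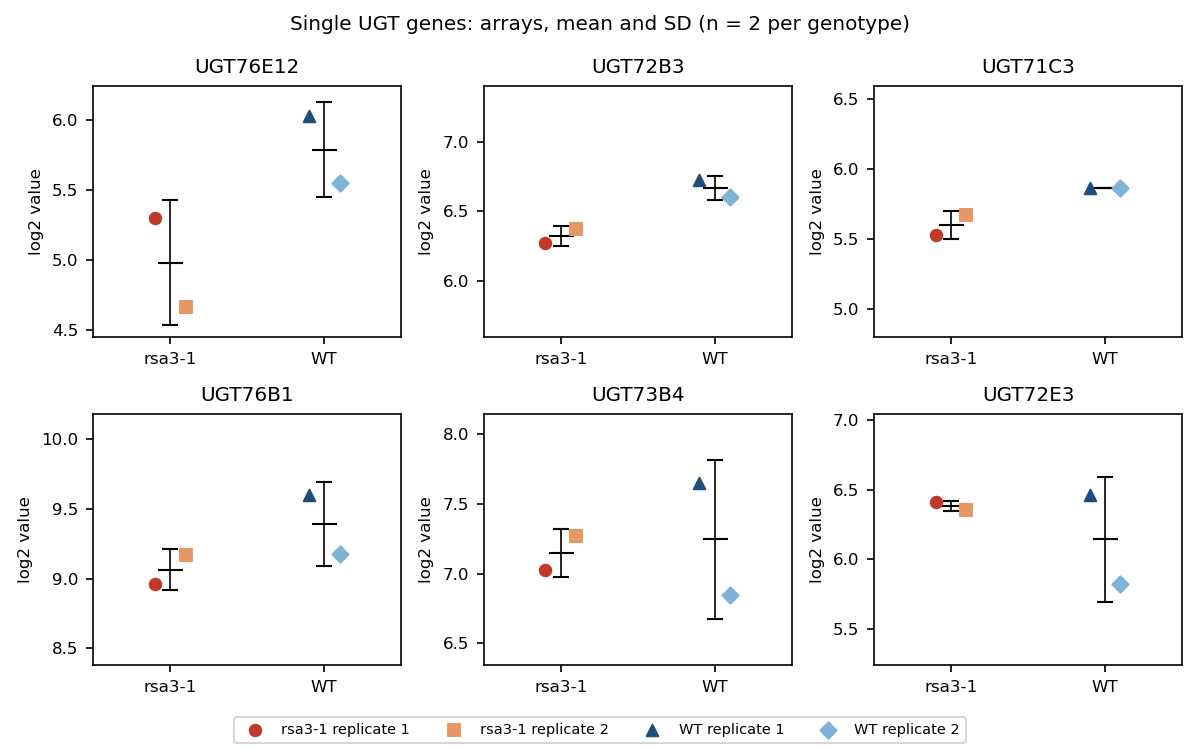
Log2 values of 6 UGT genes on each array (points), with the mean and SD of each genotype (bars, n = 2), rsa3-1 left and WT right, every panel spanning the same log2 range. UGT76E12, UGT72B3, UGT71C3 and UGT76B1 have both rsa3-1 arrays below both WT arrays, while in UGT73B4 and UGT72E3 the WT arrays lie on either side of the rsa3-1 arrays.

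By value, more members were lower than higher in rsa3-1, and the size of this tilt changed with the array left out. With all arrays, 38 of 50 differences were negative (76%) and 12 positive, and the median difference was -0.11, against 52.9% negative and a median of -0.0088 over all probe sets. Negative differences numbered 36 after quantile normalization and 33 with arrays at a common median, where the medians were -0.097 and -0.093. Without WT replicate 1, 30 were negative (60%, against 50.7% of all probe sets) and the median was -0.023. Without WT replicate 2, 38 were negative (76%, against 53.8%) and the median was -0.18. Without rsa3-1 replicate 1, 32 were negative (64%, against 55.7%) and the median was -0.070. Without rsa3-1 replicate 2, 35 were negative (70%, against 49.9%) and the median was -0.097. The highest of the 4 values was on WT replicate 1 in 31 of 50 members (62%), compared with 32.5% of all probe sets. It was on rsa3-1 replicate 1 in 3 members, on rsa3-1 replicate 2 in 6 and on WT replicate 2 in 10. These shares are descriptions of the arrays, and what part WT replicate 1 or any other array has in the tilt was not tested. Nor was the part of the tissue markers. Of these, the 4 photosynthetic genes had positive and the 4 root, root hair and guard cell genes negative differences. In PSAE-1 and FMA the genotypes overlapped, and FMA was at 0.028 without WT replicate 1.

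**Figure D3:**
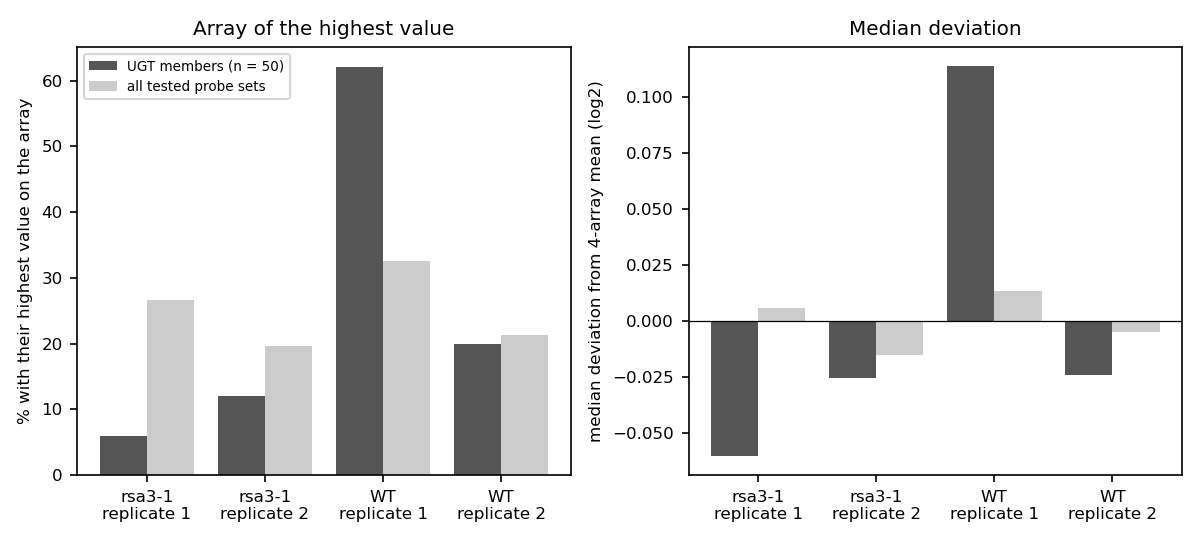
Left, percentage of the 50 UGT genes (dark) and of all 22746 tested probe sets (light) whose highest value lies on each array. Right, median log2 deviation from the mean of the 4 arrays for the same sets. WT replicate 1 holds the highest value of 62% of the UGT genes and 32.5% of all probe sets.

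The genotypes did not overlap in 22 of the 50 members. Both rsa3-1 arrays were below both WT arrays in 19 members (38%), against 20.9% of all probe sets, and above them in 3 (6%), against 17.8%. Of the 19, 14 had their highest value on WT replicate 1. In 7 of the 19, WT replicate 2 lay less than 0.05 above the higher rsa3-1 array. The 3 with higher values were UGT72B1, UGT84B1 and UGT73B1, with differences of 0.18, 0.15 and 0.027. UGT84B1 stayed below 5 on every array.

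The spread between replicates was wider in WT than in rsa3-1 for this family. The median gap between the arrays of a genotype was 0.092 for the rsa3-1 arrays and 0.17 for the WT arrays over the members, compared with 0.11 and 0.12 over all probe sets. WT replicate 1 was above WT replicate 2 in 38 of 50 members (76%) and in 54.9% of all probe sets. The gap exceeded 0.3 with WT replicate 1 higher in 10 members, and with WT replicate 2 higher in 3. In 11 of 50 members the difference between genotypes was larger than the replicate gap in both genotypes (22%), compared with 26.4% of all probe sets.

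**Figure D4:**
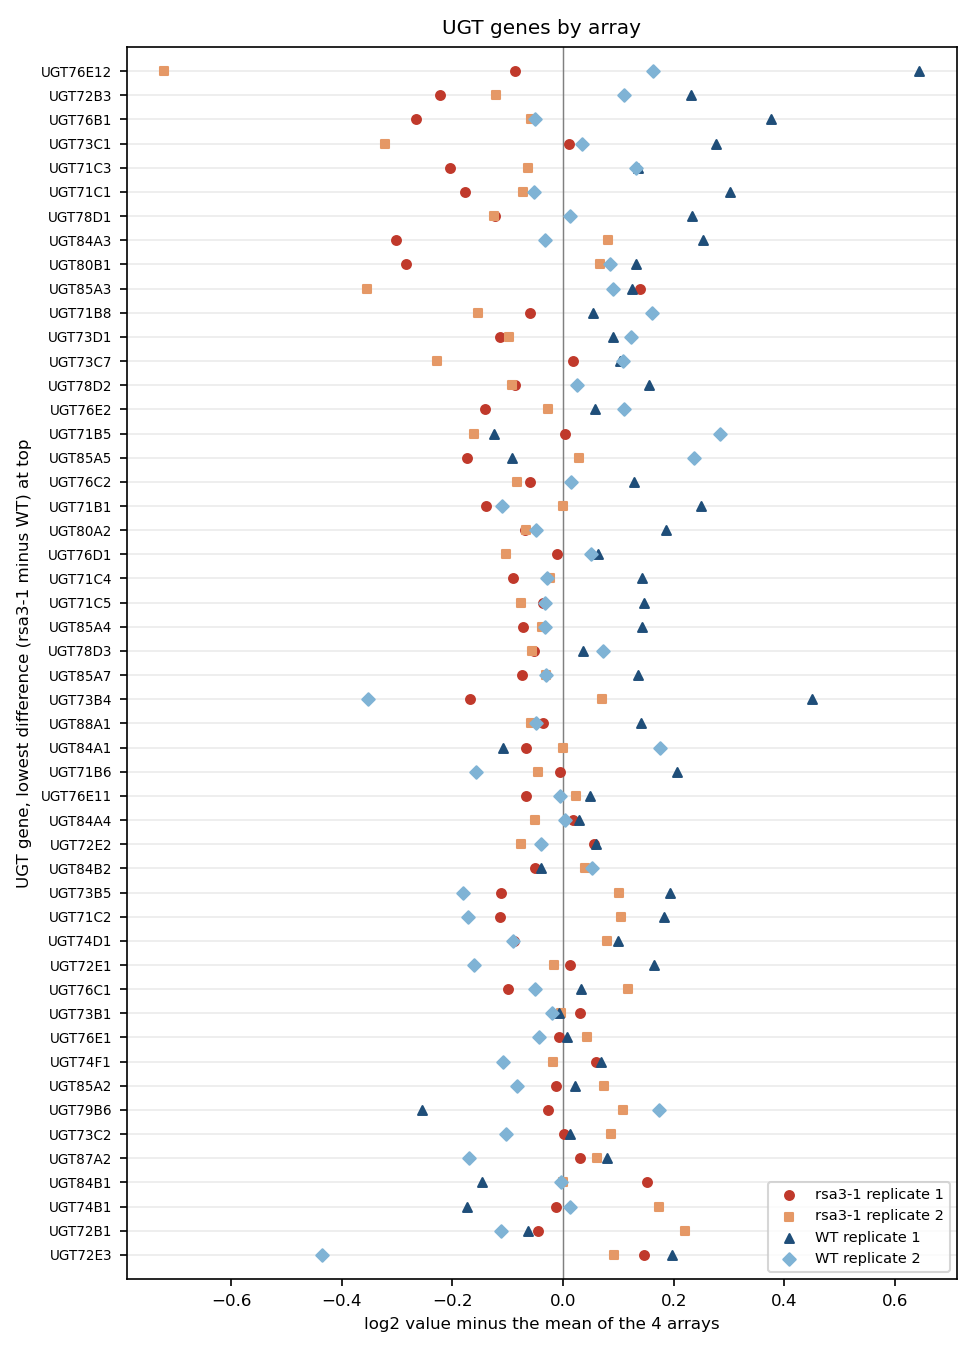
Log2 value of each UGT gene on each array minus its mean over the 4 arrays (x axis), genes ordered by the difference between rsa3-1 and WT, most negative at the top (y axis). Dark triangles, WT replicate 1, hold the highest value in 31 of the 50 genes, and in 11 of the 50 the genotype means lie further apart than the replicates of either genotype, which holds for 26.4% of all probe sets.

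Members listed here as acting on salicylic acid and related compounds were 4, and 0 passed. UGT76B1 (AT3G11340), which glucosylates isoleucic acid, salicylic acid and N-hydroxypipecolic acid and restrains immune responses, had 8.96 and 9.17 in rsa3-1, against 9.60 and 9.18 in WT. The WT arrays differed by more than the genotypes did, and WT replicate 2 was almost level with rsa3-1 replicate 2. Its difference was -0.32 ± 0.16 (SE; limma adjusted p = 0.57), and it was -0.11 without WT replicate 1 and -0.54 without WT replicate 2. UGT74F1 (AT2G43840), a salicylic acid glucosyltransferase, had 5.77 and 5.69 in rsa3-1, against 5.78 and 5.60 in WT, a difference of 0.040. UGT76D1 (AT2G26480), which glucosylates dihydroxybenzoic acids, differed by -0.11. The median of the 4, UGT71C3 included, was -0.19, which was -0.11 without WT replicate 1, and all 4 had their highest value on that array.

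Members listed here for flavonoids were 5, and 0 passed. UGT78D1 (AT1G30530), the flavonol 3-O-rhamnosyltransferase, had 8.16 on both rsa3-1 arrays, against 8.51 and 8.29 on the WT arrays. UGT78D2 (AT5G17050), which puts glucose on the 3-position of flavonols and anthocyanidins, had 8.39 and 8.38 in rsa3-1, against 8.63 and 8.50 in WT. In both genes the rsa3-1 arrays agreed closely and lay below WT, with log2 differences of -0.25 and -0.18 (adjusted p = 0.54 and 0.65 in limma). The differences were -0.14 and -0.11 without WT replicate 1. UGT78D3, the flavonol arabinosyltransferase, lay between 3.56 and 3.69 and differed by -0.11. UGT73B1 and UGT79B6, a flavonol glycoside glucosyltransferase of pollen, differed by 0.027 and 0.081.

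Of 26 genes listed for phenylpropanoid and flavonoid precursors, which supply acceptors to these enzymes, 4 were named alone by a probe set in the annotation used here. The other genes of this and the later lists may be among the 8730 probe sets that are unnamed here or the 503 that name several genes. DFR, the dihydroflavonol reductase of anthocyanin synthesis, fell in rsa3-1, with 6.45 and 6.22 in rsa3-1 against 7.60 and 7.19 in WT. Its difference was -1.06 ± 0.15 (SE; limma adjusted p = 0.026), and the call was lost without WT replicate 1 (adjusted p = 0.097), without rsa3-1 replicate 2 (adjusted p = 0.099) and with the replicate number as a block (adjusted p = 0.078). The other 3 did not pass, with REF1, an aldehyde dehydrogenase that makes sinapic and ferulic acid, at 0.16, CCR2, a cinnamoyl-CoA reductase, at -0.066 and HCT, a hydroxycinnamoyl transferase, at -0.017. The interval of UGT78D2 (-0.42 to 0.056) and that of UGT78D1 (-0.51 to 0.014) do not reach a difference of the size fitted for DFR.

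Members listed here as acting on hydroxycinnamic acids and lignin precursors were 6, and 0 passed. UGT72E1, UGT72E2 and UGT72E3 glucosylate monolignols and their aldehydes. UGT72E1 and UGT72E2 differed by -0.0033 and -0.020. UGT72E3 (AT5G26310) had 6.41 and 6.36 in rsa3-1, against 6.46 and 5.83 in WT, so that WT replicate 2 was low and the other 3 arrays were level. Its difference was 0.24 with all arrays (limma adjusted p = 0.77), 0.56 without WT replicate 1 (unadjusted p = 0.0032, adjusted p = 0.22) and -0.078 without WT replicate 2. UGT72B1 (AT4G01070), which glucosylates chlorinated phenols and monolignols, had 9.30 and 9.57 in rsa3-1, against 9.28 and 9.23 in WT, a difference of 0.18. UGT84A1 and UGT84A3, which form glucose esters of hydroxycinnamic acids, differed by -0.067 and -0.22, and without WT replicate 1 by -0.21 and -0.077. The median of the 6 was -0.012, and 0.095 without WT replicate 1.

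The hormone groups were small, and 0 of their 8 members passed. UGT71B6 and UGT71C5 glucosylate abscisic acid, a hormone of the salt response, and UGT71B8 is a close relative of UGT71B6. UGT71C5 (AT1G07240) had 7.78 and 7.75 in rsa3-1, against 7.97 and 7.79 in WT, a difference of -0.11 (95% interval -0.36 to 0.14) that was -0.023 without WT replicate 1. UGT71B6 and UGT71B8 stayed below 5 on every array and differed by -0.050 and -0.21, and without WT replicate 1 by 0.13 and -0.27. For auxin, UGT74D1, which glucosylates indole-3-acetic acid and its oxidised form, differed by -0.0089. UGT84B1 and UGT84B2, which glucosylate indole-3-acetic acid, also stayed below 5 on every array and differed by 0.15 and -0.012. UGT74D1, UGT84B1 and UGT84B2 were at 0.086, 0.080 and -0.058 without WT replicate 1. UGT73C1, which acts on cytokinins as well as foreign compounds, is not among these groups and is given below. For cytokinins, the N-glucosyltransferases UGT76C1 and UGT76C2 differed by 0.018 and -0.14. UGT76C2 had 7.64 and 7.61 in rsa3-1, against 7.83 and 7.71 in WT, and its interval reached from -0.38 to 0.090. With WT replicate 1 left out, UGT76C1 was at 0.060 and UGT76C2 at -0.087.

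Members linked to redox stress and foreign compounds were UGT73B4, UGT73B5 and UGT73C1, and 0 of the 3 passed. UGT73B4 (AT2G15490), a glucosyltransferase of foreign compounds, had 7.03 and 7.27 in rsa3-1, against 7.65 and 6.84 in WT. The rsa3-1 arrays lay between the WT arrays. Its difference was -0.099 with all arrays, 0.30 without WT replicate 1 and -0.50 without WT replicate 2. UGT73B5 (AT2G15480), needed for full resistance to bacteria, had 6.03 and 6.24 in rsa3-1, against 6.33 and 5.96 in WT, a difference of -0.011 that was 0.18 without WT replicate 1. UGT73C1 (AT2G36750), a glucosyltransferase of foreign compounds and cytokinins, had 5.13 and 4.80 in rsa3-1, against 5.40 and 5.16 in WT. Its difference was -0.31 (limma adjusted p = 0.55), and it was -0.19 without WT replicate 1. All 3 had their highest value on WT replicate 1. Of 22 genes listed for the response to foreign compounds and for transport, 2 were named alone by a probe set and 0 passed. They were GSTU25, a glutathione S-transferase, at -0.026 and AT2G21640, a gene of unnamed product that responds to oxidative stress, at -0.17.

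None of the sterol and glucosinolate members passed in limma at an adjusted p under 0.05. UGT80A2 (AT3G07020) and UGT80B1 (AT1G43620), the sterol glucosyltransferases, differed by -0.14 and -0.22, and without WT replicate 1 by -0.020 and -0.19. UGT80B1 had 6.89 and 7.24 in rsa3-1, against 7.31 and 7.26 in WT, so that rsa3-1 replicate 1 alone was low. UGT74B1 (AT1G24100), which glucosylates the thiohydroximate precursor of glucosinolates, had 8.82 and 9.01 in rsa3-1, against 8.66 and 8.85 in WT. The genotypes overlapped, and the difference was 0.16 (limma adjusted p = 0.74). UGT87A2, known for its effect on flowering time, differed by 0.092. UGT74B1 and UGT87A2 were at 0.068 and 0.22 without WT replicate 1. Of 31 genes listed for the supply of UDP-sugars, the donor substrates, 1 was named alone by a probe set, the UDP-sugar pyrophosphorylase USP, at -0.033.

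The remaining 20 members were given no acceptor in the list used here, which may be incomplete, so an acceptor may be known for some. Of these, 17 had negative and 3 positive differences, with a median of -0.13, which was -0.026 without WT replicate 1. They include UGT73D1 and UGT73C7, which are neighbours and differed by -0.21 each (limma adjusted p = 0.54 and 0.63), and UGT71C1, at -0.25 with all arrays and -0.072 without WT replicate 1. The 5 members of UGT85 without a listed acceptor, UGT85A2, UGT85A3, UGT85A4, UGT85A5 and UGT85A7, ran from -0.21 to 0.062.

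By family number, 12 numbers were represented. UGT71 had 9 members, all with negative differences, from -0.27 to -0.010, with 1 at an unadjusted p under 0.05. The scaling to a common median turned 1 of them, UGT71C2, positive (0.0038), and so did quantile normalization (0.00034). WT replicate 1 was the highest array in 7 of the 9. Without it 6 of the 9 were negative and the median was -0.029, against -0.14 with all arrays, while UGT71B1, UGT71B6 and UGT71C2 were at 0.040, 0.13 and 0.17. UGT76 had 8 members, 6 negative and 2 positive, and as many of each without WT replicate 1. UGT73 had 7 members, 5 negative and 2 positive, and UGT72 had 5, 3 negative and 2 positive. Without WT replicate 1, 3 of the UGT73 members and 1 of the UGT72 members were negative. The 3 UGT74 members had a median of 0.040.

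Neighbouring genes were set side by side from the order of protein-coding genes in the RefSeq table. In 13 runs of family genes that are adjacent or have 1 gene between them, at least 2 members had a probe set, 30 members in all. The differences within a run lay a median of 0.16 apart. They lay more than 0.3 apart in 2 runs, that of UGT76E12 and UGT76E11 and that of UGT73C1 and UGT73C2, at -0.31 and 0.089. UGT73C2 lay between 3.19 and 3.38 on all arrays. In 8 runs every such member had a negative difference and in 5 runs the signs were mixed. Without WT replicate 1 every difference was negative in 5 runs, every one was positive in 1 run and the signs were mixed in 7.

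Signal strength on an array does not rank transcripts of different genes, since each probe set has its own response. The brightest 5 members, UGT88A1, UGT85A2, UGT72B1, UGT76B1 and UGT74B1, had means of 8.84 or more and differences from -0.32 to 0.18. UGT88A1 had 10.10 and 10.08 in rsa3-1, against 10.28 and 10.09 in WT, with WT replicate 1 alone high, and differed by -0.093, which was 0.0022 without that array. At the other end, 11 members were under 5 on every array, and their differences were at most 0.21 in size. They were UGT71B6, UGT71B8, UGT73C2, UGT73C7, UGT73D1, UGT76E1, UGT78D3, UGT79B6, UGT84A1, UGT84B1 and UGT84B2. Without detection calls these 11 may be background, so that a difference in them could go unseen.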

How the data were processed

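The deposited values are log2 values made with RMA, per the submitters' processing notes, with background correction, normalization between arrays and 1 value per probe set. The software version and the genome build were not given in the sources used here. RMA compresses differences among dim probe sets. Probe sets were named from GEO's platform annotation. Of 22746 tested probe sets, 13513 name 1 gene, 503 name several and 8730 are unnamed here. Short probes may also bind close relatives, which was not tested.

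All probe sets were fitted as rsa3-1 minus WT by two-sided moderated tests (limma 3.58.1, R 4.3.3), with Benjamini-Hochberg adjustment over the whole table. The procedure was tested on simulated data. Tables and figures used Python 3.11.15, pandas 2.3.3 and matplotlib 3.10.9. The number of arrays limits the precision.

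The members and lists were chosen with earlier results of these data known. Named members are the 12 of smallest p, those of listed acceptor and the 5 brightest. Others appear in neighbour and family comparisons and were chosen after their values were seen. Same-numbered arrays had deviations correlated at 0.013 across probe sets, so they were not treated as pairs. Alternatives covered scaling, filters, variance, weights, the replicate block and each array left out. Sequences are not shown here.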

Additional observations from a re-analysis of the deposited data

How the results depend on the processing

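The count of 0 UGT members passing in limma (3 at an unadjusted p under 0.05) was also 0 under 10 of 11 alternatives fitted, with 2 to 8 members at an unadjusted p under 0.05, against 7.63% to 12.3% of all probe sets. It was 1 without rsa3-1 replicate 1, where UGT76E12 passed at a log2 difference of -1.12, and 0 to 1 over the arrays left out. With UF3GT and AT4G14090 included, with a 2-fold minimum, and over plain identifiers or all probe sets of a gene, which changed no member, it was again 0. The median difference of the members, -0.11, ran from -0.18 without WT replicate 2 to -0.023 without WT replicate 1 over the arrays left out. The 256 calls over all probe sets were 102 to 222 with an array left out, where fewer arrays are fitted and the lone array is assumed to vary like the other genotype. With the replicate number as a block they were 42, and the block left 0 members passing and the median at -0.11. Arrays share only a number, and the cause of the lower count was not tested.

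Of the 50 members, 21 changed sign under some alternative, and the largest of these with all arrays was 0.24 in size. Quantile normalization gave UGT73B5 0.0085 and UGT71C2 0.00034. A common median gave UGT84B2 0.0016, UGT72E1 0.011, UGT74D1 0.0049, UGT73B5 0.0025 and UGT71C2 0.0038. The other changes came with an array left out. From without WT replicate 2 to without WT replicate 1, differences ran from -0.20 to 0.18 in UGT73B5, -0.19 to 0.17 in UGT71C2, -0.17 to 0.16 in UGT72E1, -0.10 to 0.086 in UGT74D1, -0.50 to 0.30 in UGT73B4, -0.19 to 0.0022 in UGT88A1, -0.32 to 0.040 in UGT71B1, -0.23 to 0.13 in UGT71B6, -0.078 to 0.56 in UGT72E3, -0.049 to 0.13 in UGT74F1 and -0.033 to 0.22 in UGT87A2. From without WT replicate 1 to without WT replicate 2, they ran from -0.13 to 0.29 in UGT79B6, -0.36 to 0.047 in UGT71B5, -0.21 to 0.074 in UGT84A1 and -0.31 to 0.019 in UGT85A5. From without rsa3-1 replicate 1 to without rsa3-1 replicate 2, they ran from -0.066 to 0.0020 in UGT84A4, -0.085 to 0.045 in UGT72E2 and -0.46 to 0.032 in UGT85A3. From without rsa3-1 replicate 2, they ran from -0.091 to 0.13 in UGT76C1 and -0.088 to 0.0030 in UGT76E11 without rsa3-1 replicate 1, and from -0.058 to 0.033 in UGT84B2 without WT replicate 2. These 21 members passed under none of the alternatives in limma at an adjusted p under 0.05.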

Other observations

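Probe sets that name 2 genes, searched by symbol and not by synonym, cover at least 4 more genes of the family and were not counted among the members. The probe set of UGT73B2, a flavonoid glucosyltransferase, and UGT73B3, needed for full resistance to bacteria, had 9.48 and 9.50 in rsa3-1, against 9.90 and 9.58 in WT. Its log2 difference was -0.25 ± 0.13 (SE; limma adjusted p = 0.60), and WT replicate 1 was the highest array. The probe set of UGT89B1 and AT1G73885 had 8.44 on both rsa3-1 arrays, against 8.65 and 8.56 in WT, a difference of -0.16 (limma adjusted p = 0.68). The probe set of UGT71D1 and AT2G29710 had 7.18 and 7.61 in rsa3-1, against 7.45 and 7.19 in WT, a difference of 0.081 (limma adjusted p = 0.95). None of the 3 probe sets passed, and the 2 genes that share one cannot be told apart.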
